A study of Rattus norvegicus with 96 samples.

Results

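The 10 genes described here mark the cells of small brain vessels: the endothelial genes Abcb1a, Tek, Cldn5, Flt1, Kdr, Pecam1, Vwf and Slc2a1, and the pericyte genes Rgs5 and Pdgfrb. Every probe set annotated to 1 of these symbols alone was taken, which gave 16 of the 31042 probe sets tested, and 10 of the 14217 genes with a probe set of their own. RNA was measured on 96 arrays from the central nucleus of the amygdala of rats from 5 pairs of lines bred for alcohol preference. Each pair is named with its preferring line first: HAD1 and LAD1 (9 and 10 arrays), HAD2 and LAD2 (10 and 10), P and NP (10 and 10), AA and ANA (10 and 10), and sP and sNP (8 and 9). Age, sex and alcohol exposure of the animals are not stated in the labels used here. A line is a closed breeding population, so animals of a line share descent and the spread between arrays does not measure the spread between independently bred lines. Values are log2 intensities made by the authors with RMA. A difference of 1 is a fold of 2, and every difference is the preferring minus the other line of its pair.

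Brain capillaries form the blood-brain barrier. Endothelial cells joined by tight junctions line the vessel, keep most solutes out of the tissue, import glucose and pump many drugs back into the blood, and pericytes wrap the endothelial tube from outside. In whole tissue, fewer cells of a type and less RNA per cell cannot be told apart.

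The genes lie on 8 chromosomes. Abcb1a, which encodes the efflux pump P-glycoprotein, lies at chr4:26312403-26488456 and Vwf, which encodes the clotting and adhesion protein von Willebrand factor, at chr4:160042900-160177757. Tek, the receptor for angiopoietins, lies at chr5:114722815-114849535 and Slc2a1, the glucose transporter of the barrier, at chr5:138002522-138030742. Rgs5, a regulator of G-protein signalling that marks pericytes, lies at chr13:84381077-84417875. The positions are those of RefSeq on GRCr8, and the positions of the probes within the genes were not used here.

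RefSeq's table of promoters held 6 of the 10 genes. The 250 bases before the start site of Abcb1a and Rgs5 are shown because these genes differed between HAD2 and LAD2, and those of Cldn5 and Slc2a1 because this pair of genes varied together most closely across arrays. All are on GRCr8 and read 5′ to 3′ on the gene's strand. The Abcb1a window lies inside the interval of the gene given above, so the start site it precedes is not at the end of that interval. Capitals mark matches on either strand to the GC box GGGCGG, read CCGCCC on the other strand, and to the CCAAT box, read ATTGG on the other strand.
Abcb1a, chr4:26397649-26397898, minus strand: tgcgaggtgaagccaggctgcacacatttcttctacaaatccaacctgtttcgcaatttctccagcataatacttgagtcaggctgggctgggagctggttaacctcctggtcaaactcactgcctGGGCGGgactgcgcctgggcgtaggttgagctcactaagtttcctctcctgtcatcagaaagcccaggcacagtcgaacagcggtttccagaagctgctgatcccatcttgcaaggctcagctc
Rgs5, chr13:84380827-84381076, plus strand: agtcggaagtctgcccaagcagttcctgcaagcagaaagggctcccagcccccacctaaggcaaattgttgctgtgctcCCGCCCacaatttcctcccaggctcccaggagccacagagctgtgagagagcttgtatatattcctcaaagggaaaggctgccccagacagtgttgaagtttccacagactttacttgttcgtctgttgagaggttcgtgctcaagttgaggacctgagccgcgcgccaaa
Cldn5, chr11:95718599-95718848, minus strand: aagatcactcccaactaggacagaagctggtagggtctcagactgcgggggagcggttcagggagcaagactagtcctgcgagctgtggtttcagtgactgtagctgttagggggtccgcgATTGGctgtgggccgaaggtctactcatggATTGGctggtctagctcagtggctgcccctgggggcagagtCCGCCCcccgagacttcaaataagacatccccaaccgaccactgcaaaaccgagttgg
Slc2a1, chr5:138002272-138002521, plus strand: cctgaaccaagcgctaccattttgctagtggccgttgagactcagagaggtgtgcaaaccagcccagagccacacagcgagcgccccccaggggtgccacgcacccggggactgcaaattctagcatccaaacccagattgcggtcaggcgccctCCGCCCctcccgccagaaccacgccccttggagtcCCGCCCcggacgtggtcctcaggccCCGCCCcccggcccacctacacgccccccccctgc
The GC box was in all 6 of the promoters held, Flt1 and Kdr included, against 30.5% of the 33469 promoters in the table over the same length. Abcb1a, Rgs5, Cldn5 and Kdr had 1 match each, and Flt1 and Slc2a1 had 3 each. The CCAAT box was in 2 of the 6, Cldn5 with 2 matches and Kdr with 1, against 34% of all promoters. The letters CCGGAA, an extended core of the ETS factor motif, were in 1 of the 6, Kdr, against 12.6% of all promoters. The matched windows were rich in G and C, at 54.0% in Abcb1a, 54.4% in Rgs5, 58.4% in Cldn5, 61.6% in Kdr, 68.4% in Slc2a1 and 73.2% in Flt1. A match is a description of these letters only.

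The GAPDH ratio, the log2 signal of 3′ over 5′ control probe sets, rises as RNA is degraded or copied incompletely. It averaged 3.33 to 4.09 in the HAD and LAD lines and 0.20 to 0.43 in the other 6 lines, so tests between lines are made only within pairs. Of the 96 arrays, 15 lay nearer the other line of their pair when scored on odd-numbered and on even-numbered chromosomes, without the 16 probe sets described here. They were HAD1 28 and LAD1 37, P 1, P 9, NP 1 and NP 9, AA 15, AA 17, AA 19, ANA 16 and ANA 18, and sP 2, sP 9, sNP 8 and sNP 9, and none was in HAD2 or LAD2. Results are given with all arrays as labelled, and beside them without these 15, which raises line differences by construction. Of 13 markers of central amygdala neurons 11 were measured, with levels between 5.81 for Calcrl and 13.87 for Penk; with no other tissue on these arrays, such levels do not test the tissue label. LAD1 36, which carries both LAD1 and HAD1 in its labels, lay on the LAD1 side at -0.73 and -0.95, where -1 is the LAD1 median. The arrays sP 2 and sNP 2 differed with an SD of 0.09 log2 units over all probe sets, the smallest value within any line pair; the second smallest was 0.16. Whether the same RNA was measured under both names was not tested, and sP values are given below also without sNP 2.

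The signal of the genes was well spread over the range of the array. By its mean over all arrays, Cldn5, a tight junction protein, stood at the 90.5th percentile of all probe sets, and Slc2a1 at the 87.3rd. The brightest probe sets of Tek, Abcb1a, Vwf, Kdr and Rgs5 stood between the 66.0th and the 74.8th percentile. Pecam1, an adhesion molecule of endothelial junctions, stood at the 48.4th, Pdgfrb, the receptor by which pericytes respond to platelet-derived growth factor, at the 48.0th, and Flt1, a receptor for vascular endothelial growth factor (VEGF), at the 40th. A probe set's intensity also depends on its probes, so these percentiles say nothing of which transcript is more abundant. Kdr, the main signalling receptor for VEGF, had a second probe set at the 9.2nd percentile, and the other probe sets of Flt1 stood at the 21.8th and the 19.7th.

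Within lines, the brightest probe set of Abcb1a varied more than that of any other of the 10 genes, with an SD of 0.34 log2 units between arrays of a line, larger than in 92.8% of all probe sets. Vwf followed with an SD of 0.34, larger than in 92.5%. Kdr had an SD of 0.22, Cldn5 of 0.21, Rgs5 of 0.21, Slc2a1 of 0.20, Flt1 of 0.19, Pdgfrb of 0.18, Tek of 0.17 and Pecam1 of 0.17. Line means of Abcb1a ran between 8.54 in LAD2 and 9.97 in NP, those of Rgs5 between 7.99 in LAD2 and 9.88 in P, and those of Tek between 9.39 in sNP and 10.62 in HAD1. The 4 HAD and LAD lines had lower Rgs5 and higher Tek signal than the other 6 lines, the same split as the GAPDH ratio, and line and RNA quality cannot be told apart here.

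HAD2 rats differed from LAD2 rats in Abcb1a, Rgs5 and Tek. The efflux pump gene Abcb1a and the pericyte gene Rgs5 were higher in HAD2, and the angiopoietin receptor gene Tek was lower. These were 3 of the 16 probe sets (limma, adjusted p under 0.05), against 4.09% of all probe sets in this pair. Of the other 13 probe sets, 6 were above and 7 below 0. The genes were chosen with earlier results of these data known. Such a count beside the share of all probe sets is therefore no test of whether vessel genes differ more often. The gene lists used below were chosen in the same way, and the limit holds for every such count given below.

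Abcb1a had 8.78, 9.18 and 9.80 as its lowest, median and highest value in HAD2, against 8.15, 8.44 and 9.25 in LAD2. The ranges overlapped through LAD2 11 and LAD2 12, at 9.21 and 9.25, while the other 8 LAD2 arrays lay at 8.72 or below. The HAD2 mean was 9.20 ± 0.30 and the LAD2 mean 8.54 ± 0.42 (SD over 10 arrays each). The difference of 0.66 ± 0.15 (SE) was 1.57-fold and passed (limma adjusted p = 0.00933), with all 10 HAD2 arrays above the LAD2 mean. The second Abcb1a probe set differed by 0.39 ± 0.14 in the same direction and did not pass (limma adjusted p = 0.122). A further probe set that matches both Abcb1a and its near-identical neighbour Abcb1b differed by 0.17 ± 0.09 and did not pass (limma adjusted p = 0.35); no probe set of Abcb1b alone was annotated.

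Rgs5 had 7.91, 8.47 and 8.93 as its lowest, median and highest value in HAD2, against 7.73, 7.98 and 8.24 in LAD2. The 4 lowest HAD2 arrays, between 7.91 and 8.24, lay within the LAD2 range, and the other 6 lay above every LAD2 array. The HAD2 mean was 8.42 ± 0.28 and the LAD2 mean 7.99 ± 0.15, a difference of 0.42 ± 0.10 or 1.3-fold (limma adjusted p = 0.00964). Tek went the other way. It had 9.66, 9.95 and 10.20 as its lowest, median and highest value in HAD2, against 10.004, 10.14 and 10.39 in LAD2, and every LAD2 array was above the HAD2 mean. The difference was -0.28 ± 0.07, 1.2-fold lower in HAD2 (limma adjusted p = 0.0235).

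These differences were of about the same size with the GAPDH ratio as a covariate, at 0.61 for Abcb1a, 0.39 for Rgs5 and -0.28 for Tek, all past the threshold. The remaining endothelial genes stayed close to 0 in this pair: Slc2a1 was at 0.12, Pecam1 at 0.11, Vwf at 0.05, Flt1 at 0.02, Cldn5 at -0.03 and Kdr at -0.04 by their brightest probe sets, and none passed. Pdgfrb, the other pericyte gene, was at -0.09, 0.13 and -0.03 by its 3 probe sets, none past the test, with 95% confidence intervals that together spanned -0.24 to 0.28.

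**Figure D1:**
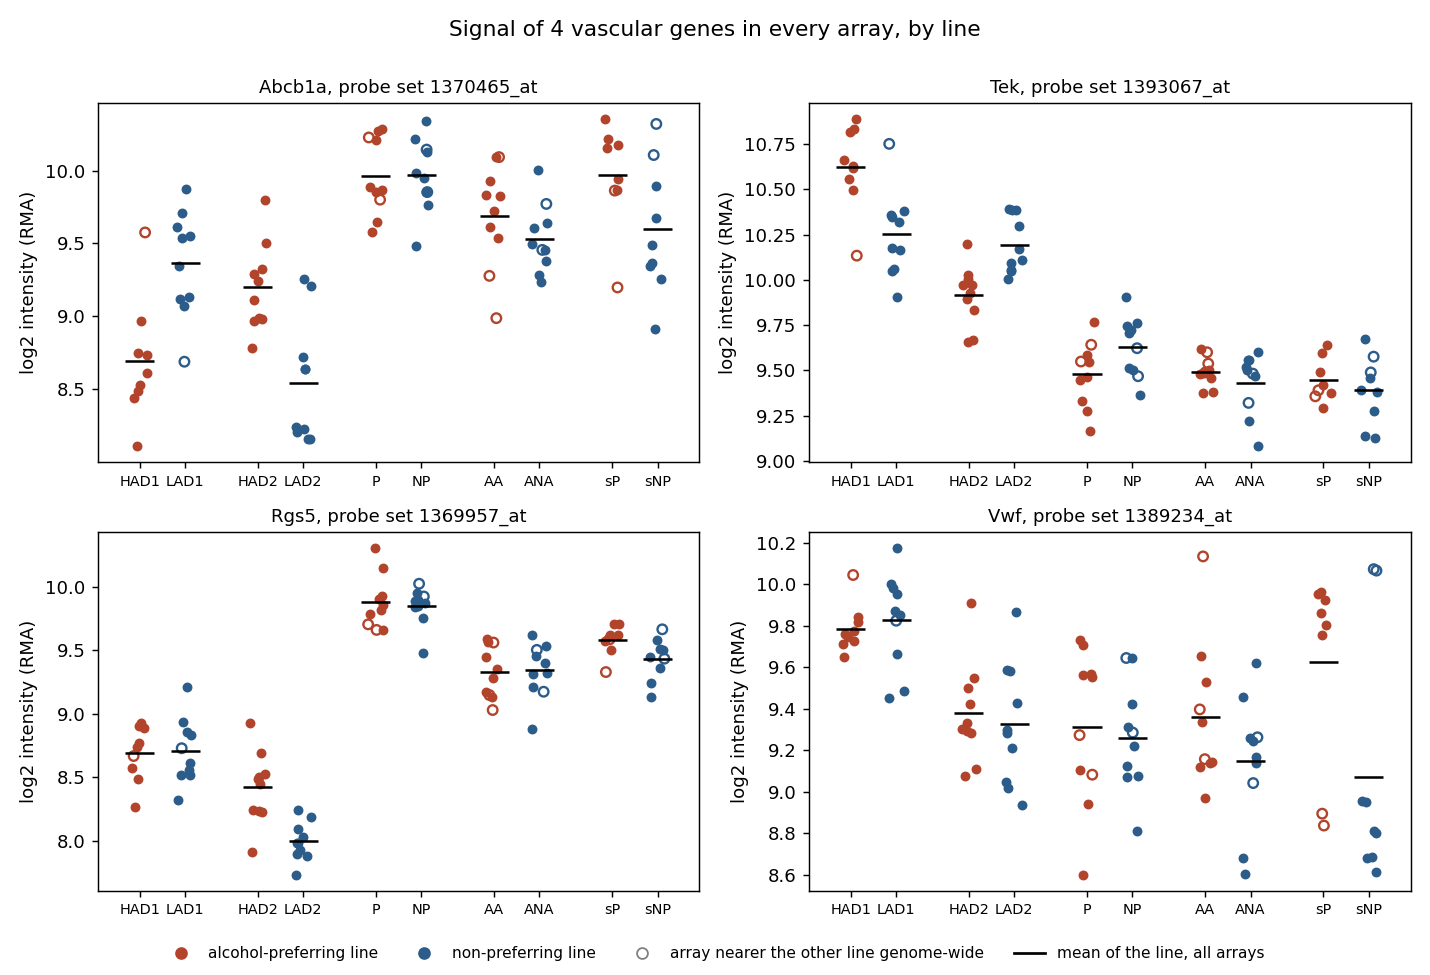
Log2 intensity (vertical axis) of the brightest probe sets of Abcb1a, Tek, Rgs5 and Vwf in each of the 96 arrays, by line (horizontal axis, preferring line left of the other line of its pair); open circles are the 15 arrays that lay nearer the other line, and bars are line means over all arrays. Abcb1a is lower in HAD1 than in LAD1 and higher in HAD2 than in LAD2, the Tek means lie the opposite way in both pairs, and Vwf forms 2 separate clusters in sP and sNP.

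In HAD1 and LAD1, Abcb1a differed with the opposite sign to that in HAD2 and LAD2. It was lower in HAD1, the 1 probe set of the 16 that passed, against 0.963% of all probe sets. It had 8.11, 8.61 and 9.58 as its lowest, median and highest value in HAD1, against 8.69, 9.44 and 9.87 in LAD1. The difference was -0.67 ± 0.16, 1.59-fold lower in HAD1 (limma adjusted p = 0.0403). The call was close to the threshold: it was lost without any one of 14 of the 19 arrays, with differences between -0.70 and -0.60 and adjusted p between 0.0529 and 0.0918, and kept without HAD1 28, HAD1 30, LAD1 37, LAD1 39 or LAD1 40. It was also lost with the GAPDH ratio as a covariate, at -0.65 (limma adjusted p = 0.058), and with LAD1 36 counted as HAD1, at -0.53 (limma adjusted p = 0.337).

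The overlap came from the arrays nearer the other line, HAD1 28 at 9.58 and LAD1 37 at 8.69. Without both, HAD1 ran between 8.11 and 8.97 and LAD1 between 9.07 and 9.87, with no overlap, and the difference was -0.86 ± 0.12 (limma adjusted p = 1.46e-04). Tek behaved likewise. Its difference of 0.37 ± 0.10 was positive and did not pass with all arrays (limma adjusted p = 0.0873), with HAD1 28 the lowest HAD1 array at 10.13 and LAD1 37 the highest LAD1 array at 10.75. Without both, HAD1 ran between 10.50 and 10.89 and LAD1 between 9.91 and 10.38, and the difference of 0.49 ± 0.08 passed (limma adjusted p = 7.14e-04). It also passed with 1 fit of all 10 groups (limma adjusted p = 0.00152), with array weights (adjusted p = 0.047) and with the GAPDH ratio as a covariate, at 0.42 (adjusted p = 0.0281). In all, 2 of the 16 probe sets passed without the 2 arrays, against 2.56% of all probe sets.

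Rgs5, which was higher in HAD2, was at -0.02 ± 0.10 in HAD1, with a 95% confidence interval of -0.23 to 0.20. By their brightest probe sets the other genes lay between -0.19 for Slc2a1 and -0.01 for Cldn5, none past the test. Pdgfrb was at -0.15 ± 0.06 by its brightest probe set, where no HAD1 array exceeded the LAD1 mean; its unadjusted p was 0.0149 and it did not pass (limma adjusted p = 0.282). In this pair 1 of the 10 genes had a positive difference, against 43.6% of all genes, with a median of -0.04 against -0.01 for all genes. The genes varied together across these arrays (median r 0.32), so these signs are not independent of each other.

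sP rats had higher signal than sNP rats for 9 of the 10 genes, but none passed with all arrays. The median difference was 0.14, against -0.01 over all genes, of which 41.3% were positive. Pecam1 and Pdgfrb, by its brightest probe set, were among the 9 but near 0, at 0.01 and 0.02. The 10 genes varied together across these arrays (median r 0.64), so their signs are not independent of each other. No probe set of the array passed in this pair (0% of all, with 1341 at an unadjusted p under 0.05), so the test called nothing among these genes either; 3 of the 16 had an unadjusted p under 0.05, namely Vwf, Rgs5 and the brightest probe set of Abcb1a.

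The Vwf values fell into 2 separate clusters that did not follow the labels. The sP arrays had 8.84, 8.90, 9.76, 9.80, 9.86, 9.93, 9.95 and 9.96, against 8.61, 8.68, 8.69, 8.80, 8.81, 8.95, 8.95, 10.06 and 10.07 in the sNP arrays. The low sP arrays were sP 9 and sP 2, and the high sNP arrays were sNP 9 and sNP 8, the 4 arrays that lay nearer the other line by probe sets other than these. With all arrays the difference was 0.55 ± 0.23 (limma adjusted p = 1). Without these 4, sP ran between 9.76 and 9.96 and sNP between 8.61 and 8.95, and the difference was 1.09 ± 0.07, 2.1-fold (limma adjusted p = 3.15e-08, n = 6 and 7 arrays).

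Abcb1a followed a similar order in this pair. It had 9.20, 10.05 and 10.35 as its lowest, median and highest value in sP, against 8.91, 9.49 and 10.32 in sNP, where sP 9 was the lowest sP array and sNP 9 and sNP 8 the highest sNP arrays. With all arrays the difference was 0.37 ± 0.18 (limma adjusted p = 1), and without the 4 arrays it was 0.70 ± 0.13 (limma adjusted p = 0.00679). The ranges still overlapped by sNP 2, at 9.89. The second Abcb1a probe set was then at 0.49 ± 0.12 (limma adjusted p = 0.053). Vwf and Abcb1a were the 2 of 16 that passed without the 4 arrays, against 1.75% of all probe sets, and 9 of 10 genes were again positive, with a median of 0.23. Flt1 was then at 0.30, Kdr at 0.30, Cldn5 at 0.23 and Rgs5 at 0.23, none past the test. With sNP 2 left out as well (6 arrays each), Vwf was at 1.12 ± 0.06 (limma adjusted p = 6.38e-08) and Abcb1a at 0.78 ± 0.11 (limma adjusted p = 0.00123), and neither overlapped, with Abcb1a between 9.87 and 10.35 in sP and between 8.91 and 9.68 in sNP. The second Abcb1a probe set then passed at 0.54 (limma adjusted p = 0.0334), which made 3 of 16, against 1.7% of all probe sets.

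P and NP, and AA and ANA, showed no call among these genes. No probe set of the array passed in either pair with all arrays (0% in both, with 1523 and 1528 at an unadjusted p under 0.05). In P rats Tek had the largest difference of the 10 genes, at -0.15 ± 0.08 (95% confidence interval -0.31 to 0.01), and Abcb1a was at -0.01 ± 0.11 and Rgs5 at 0.03 ± 0.08. In AA rats Vwf was at 0.21 ± 0.14 and Abcb1a at 0.16 ± 0.12, with intervals of -0.07 to 0.49 and -0.10 to 0.42. Without the arrays nearer the other line, 0 of the 16 passed in P, against 1.62% of all probe sets, and 0 of the 16 in AA, against 1.8%; Tek was then at -0.21 in P and Abcb1a at 0.28 in AA. The Tek interval in P includes the -0.28 called in HAD2, while that in AA, -0.07 to 0.19, does not. The Rgs5 intervals, -0.14 to 0.19 in P and -0.20 to 0.18 in AA, lie below the 0.42 called in HAD2. Those of Abcb1a, -0.24 to 0.22 in P among them, lie below its 0.66. The HAD2 values have intervals of their own. They are -0.43 to -0.13 for Tek, 0.22 to 0.63 for Rgs5 and 0.35 to 0.97 for Abcb1a, which overlaps that of Abcb1a in AA. Rgs5 did not pass a test of whether the 5 differences vary among pairs (limma F test, adjusted p = 0.0751). A missing call does not show equal levels.

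With all arrays, both lines of a pair overlapped for all 16 probe sets in all 5 pairs. The share of all probe sets without overlap was 0.0193% in HAD1, 0.86% in HAD2, 0% in P, 0% in AA and 0.00966% in sP. Without the arrays nearer the other line, Abcb1a and Tek in HAD1 and Vwf in sP no longer overlapped, against 0.731% of all probe sets in HAD1 and 1.64% in sP; none of the 16 separated in P, against 0.731%, or in AA, against 0.931%.

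**Figure D2:**
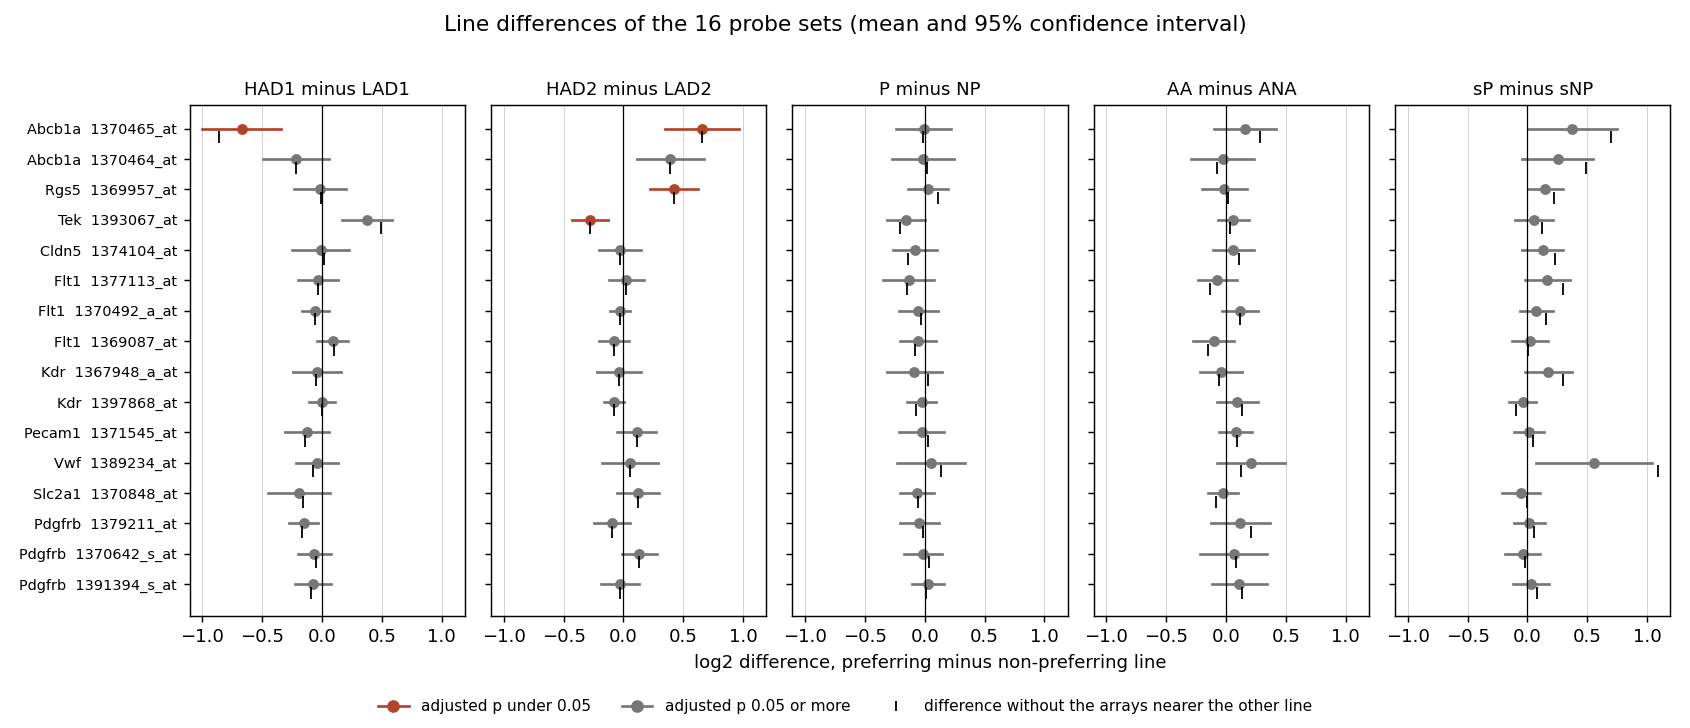
Log2 difference, preferring minus non-preferring line (horizontal axis), of each of the 16 probe sets (vertical axis) in the 5 line pairs, as the mean and its 95% confidence interval over all arrays; red marks adjusted p under 0.05 and black ticks give the difference without the arrays nearer the other line. Abcb1a stands at -0.67 in HAD1 and 0.66 in HAD2, Tek at 0.37 and -0.28, and Vwf in sP moves to 1.09 without 4 arrays.

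Averaged over the 5 pairs with equal weight, none of the 16 probe sets passed with all arrays, against 0.986% of all probe sets; 2 had an unadjusted p under 0.05. Vwf was highest at 0.17 ± 0.07, with a positive difference in 4 of 5 pairs, followed by Rgs5 at 0.11 ± 0.04 (limma adjusted p = 0.402 and 0.269). Without the arrays nearer the other line Vwf was at 0.27 ± 0.06 and passed (limma adjusted p = 0.00126), 1 of the 16 against 2.9% of all probe sets, and Rgs5 was at 0.15 ± 0.05 (limma adjusted p = 0.0515). The Vwf differences were then -0.07 in HAD1, 0.05 in HAD2, 0.14 in P, 0.12 in AA and 1.09 in sP. Only that in sP passed within its pair, so the Vwf average does not show a difference that recurs over pairs. With the 5 pair differences as the replicates, 0 of 31042 probe sets passed in limma, with 927 at an unadjusted p under 0.05, and Vwf had an unadjusted p of 0.0881. Abcb1a averaged 0.10 ± 0.07, over differences of -0.67 in HAD1, 0.66 in HAD2, -0.01 in P, 0.16 in AA and 0.37 in sP. Without HAD1 and LAD1, the pair with the lowest of these, it averaged 0.30 (limma adjusted p = 0.0277). In that fit 235 of 31042 probe sets passed. Leaving out the lowest difference raises the average by construction, and without any other single pair Abcb1a did not pass.

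The 5 differences varied among pairs for Abcb1a (F = 10.5, limma adjusted p = 5.55e-05) and Tek (F = 9.93, limma adjusted p = 9.91e-05), 2 of the 16 probe sets against 4.54% of all. Without HAD1 and LAD1, neither passed this test, where 946 of all 31042 probe sets did. Without the arrays nearer the other line 4 of the 16 passed, against 10.5% of all probe sets: both probe sets of Abcb1a, Tek and Vwf (limma adjusted p = 8.95e-06 for Vwf). The 2 genes were opposite to each other in both HAD pairs. Their deviations within lines had r = 0.09 over 96 arrays and r = 0.33 without the arrays nearer the other line; within line pairs r ran between -0.32 in HAD1 and LAD1 and 0.53 in P and NP.

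Probe sets of 1 gene did not all vary alike. The deviations of Abcb1a's probe sets from their line means correlated with r = 0.73 over 96 arrays, and their differences had the same sign in 4 of 5 pairs. The probe sets of Pdgfrb correlated with r between 0.36 and 0.65, and those of Flt1 with r between 0.13 and 0.30. The probe sets of Kdr had r = -0.24, with the same sign in 3 of 5 pairs. The second of them lay near background, at a mean of 5.08 and the 9.2nd percentile, which limits what its r can say. Where lines carry different alleles at a probe's target, the value of one probe set can shift and that of another not. A shift shared by a whole line is removed from r with the line mean, but not from the signs of the differences. The sequences of the probes were not used here.

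Across arrays, the 10 genes varied together. Each brightest probe set was taken as its deviation from its line mean, which removes the difference between line means. All 45 pairs of genes had a positive r over 96 arrays, with a median of 0.39 and a range of 0.04 to 0.61, against a median r of -0.01 between these genes and the 14207 other genes. The points share RNA preparation, array and normalization, and the correlation describes these libraries. Cldn5 and Slc2a1 had r = 0.61, as did the VEGF receptor genes Flt1 and Kdr; Rgs5 and Slc2a1, a pericyte and an endothelial gene, had r = 0.59. Leaving out the 2 arrays farthest from the median of the first gene gave 0.57 for Cldn5 and Slc2a1, 0.58 for Flt1 and Kdr and 0.55 for Rgs5 and Slc2a1.

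Pecam1 and Pdgfrb stood least close to the rest. Pecam1 had r = 0.34 with the mean of the other 9 genes and Pdgfrb had r = 0.34, whereas Flt1 had 0.69, Cldn5 0.67, Vwf 0.66, Rgs5 0.61, Slc2a1 0.60, Kdr 0.59, Abcb1a 0.57 and Tek 0.46. The lowest r of all was 0.04, between Pecam1 and Rgs5. The 2 pericyte genes were thus not each other's closest relative: Rgs5 correlated best with Slc2a1, and Pdgfrb best with Pecam1, at r = 0.35.

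The median r was 0.32 in HAD1 and LAD1 (19 arrays), 0.29 in HAD2 and LAD2 (20), 0.35 in P and NP (20), 0.49 in AA and ANA (20) and 0.64 in sP and sNP (17). Arrays nearer the other line carry the line difference in their deviation; without them the medians were 0.42, 0.29, 0.36, 0.58 and 0.58 in the same order of pairs. All 45 pairs of genes were positive in AA and ANA and in sP and sNP, and 39 to 41 of 45 in the other 3 pairs of lines. Over all 81 remaining arrays the median was 0.41.

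**Figure D3:**
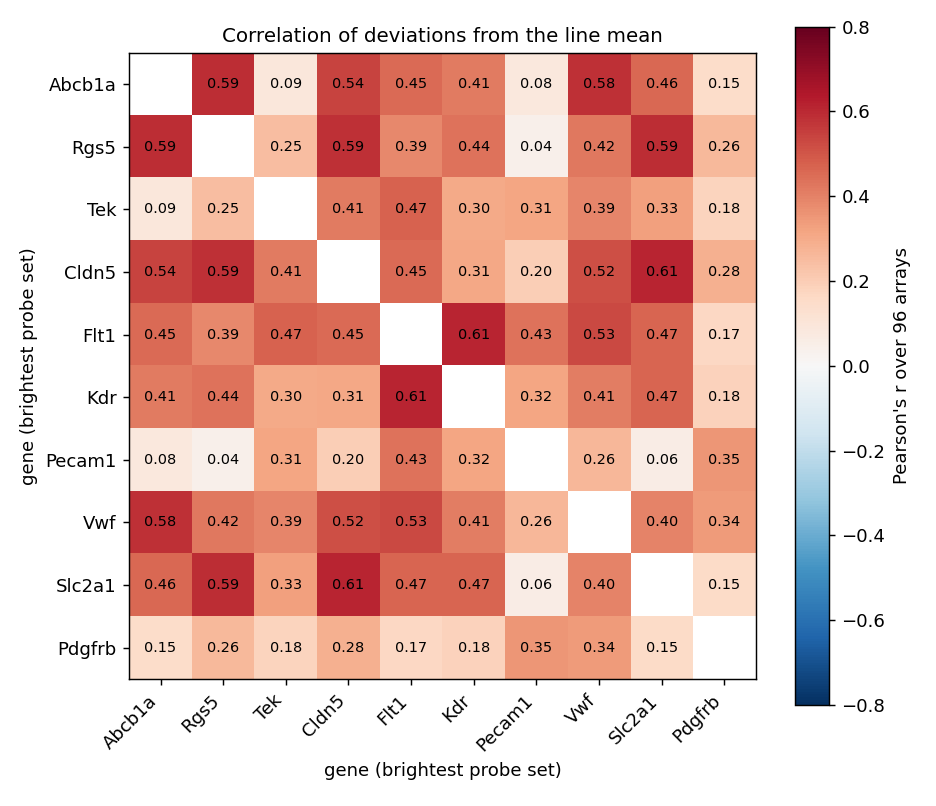
Pearson's r over 96 arrays between the deviations from the line mean of the 10 genes, each by its brightest probe set; colour and number give r. All 45 pairs are positive, with the lowest values in the column of Pecam1 and the highest, 0.61, for Cldn5 with Slc2a1 and for Flt1 with Kdr.

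Among the 14207 other genes, 8 are named for the highest r with the mean standardised deviation of the 10 genes. They were Srgn, a proteoglycan core protein of secretory granules, at 0.80, Slco1a4, an organic anion transporter of the brain endothelium, at 0.77, Lmo2, a transcription cofactor of blood and endothelial cells, at 0.77, Kiaa1958 at 0.76, Pik3c2b, a lipid kinase, at 0.76, Fermt2, an integrin-binding protein of cell adhesion, at 0.75, Ptprb, the vascular endothelial tyrosine phosphatase, at 0.75, and Chd7, a chromatin remodeller, at 0.75. Within single line pairs their r ran between 0.53 and 0.91. The single most like gene of each was Aldh1a1 for Abcb1a (r = 0.63), Srgn for Rgs5 (0.66), Slco1a4 for Tek (0.60), Acsbg1 for Cldn5 (0.74), Slc16a1, a monocarboxylate transporter, for Flt1 (0.72), Plcl1 for Kdr (0.74), Atp1b2 for Pecam1 (0.60), Eml1 for Vwf (0.70), Tpst2 for Slc2a1 (0.86) and Rcan3 for Pdgfrb (0.63). For none of the 10 was another of the 10 the closest gene: the best-placed of the other 9 ranked between the 14th, for Abcb1a, and the 586th, for Slc2a1, of all genes.

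Lists of other cell types moved with the 10 genes to different degrees. The mean deviation of 30 further endothelial genes had r = 0.79 with that of the 10 genes over 96 arrays, between 0.65 and 0.90 within line pairs, and that of 14 further pericyte genes had r = 0.76, between 0.68 and 0.88. Oligodendrocyte markers (11 genes) had r = 0.64, with all 11 positive, and astrocyte markers (10 genes) had r = 0.50. In AA and ANA these fell to 0.26 and 0.06. Taken gene by gene the order differed. The median r of single genes was 0.62 for oligodendrocyte markers, 0.39 for further endothelial, 0.38 for astrocyte and 0.31 for further pericyte genes. An r over 0.5 was reached by 10 of 11 oligodendrocyte markers, 8 of 30 endothelial and 4 of 14 pericyte genes. Microglial markers had r = 0.39, between -0.14 in AA and ANA and 0.82 in HAD1 and LAD1. Smooth muscle genes had r = 0.19, choroid plexus markers 0.02 and blood cell markers -0.06. General neuron markers had r = 0.07, and markers of central amygdala neurons had r = -0.55, negative in all 5 pairs. The GAPDH ratio had r = 0.26, between -0.35 in sP and sNP and 0.51 in HAD1 and LAD1. The part of these cell types in the differences between lines was not tested.

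**Figure D4:**
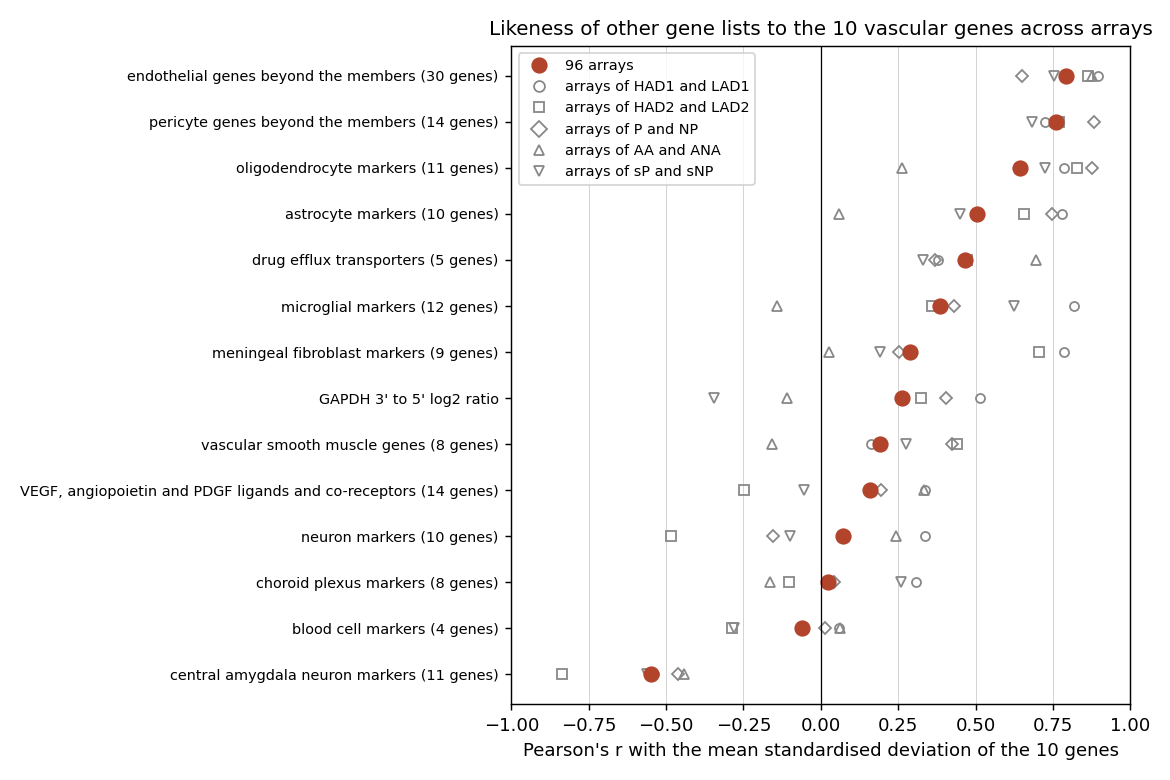
Pearson's r (horizontal axis) between the mean standardised deviation of each gene list, and of the GAPDH ratio, and that of the 10 genes; red circles are all 96 arrays and grey symbols the arrays of 1 line pair. By these list means, endothelial and pericyte lists lie highest at 0.79 and 0.76, and central amygdala neuron markers lie at -0.55. By the median r of single genes, which is not drawn, oligodendrocyte markers lie highest at 0.62.

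Other genes of the same vessels did not follow a single direction. In HAD2, where 4.09% of all probe sets passed and 48.4% of all genes were positive, 1 of 30 further endothelial genes rose and 2 fell: Sox17, a transcription factor of arterial endothelium, was 0.99 ± 0.14 higher (limma adjusted p = 5.87e-05), and Nos3, endothelial nitric oxide synthase, and Egfl7, an endothelial matrix protein, were at -0.49 and -0.23. The list's median was -0.0057, against -0.0039 over all genes. Of 14 further pericyte genes, 2 rose in HAD2 and none fell: Abcc9, a subunit of a potassium channel of pericytes, by 0.76 ± 0.11 (limma adjusted p = 3.69e-05) and Tbx18, a mural cell transcription factor, by 0.27. With 10 of 14 positive, this list had a median of 0.08. Of 8 smooth muscle genes Myl9 rose by 0.50, and 7 of 8 were positive. Among markers of other cells in this pair, the microglial list held calls in both directions: P2ry12, a purine receptor of microglia, was 0.64 ± 0.08 higher (limma adjusted p = 4.62e-06), Cx3cr1, the microglial fractalkine receptor, was at -0.30 (limma adjusted p = 0.0033), and 3 of 12 were positive, with a median of -0.18. Of 10 astrocyte markers, Gjb6, a gap junction protein, was higher at 0.28 (limma adjusted p = 0.0131), and 8 were positive. No central amygdala neuron, oligodendrocyte or meningeal marker passed, with 1 of 11, 8 of 11 and 6 of 9 positive and a median of -0.15 for the central amygdala list. Their part in the Abcb1a, Rgs5 and Tek differences was not tested.

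In HAD1, where 0.963% of all probe sets passed and 43.6% of all genes were positive, none of the further endothelial and pericyte genes passed with all arrays. The smooth muscle genes Myh11 and Tagln fell, at -0.46 and -0.50 (limma adjusted p = 0.0438 and 0.0362), and 0 of 8 of that list were positive, with a median of -0.16. Of 9 meningeal fibroblast markers 1 passed, Igf2 at -0.45, and 2 were positive. Of 12 microglial markers 2 passed, Cx3cr1 at -0.40 and the complement gene C1qc at -0.48 (limma adjusted p = 0.0348 and 0.0266), and 0 were positive, with a median of -0.17. Their part in the HAD1 differences was not tested. Without HAD1 28 and LAD1 37, Sox17 was at -0.62 and Fli1, an ETS factor of endothelium, at -0.52, both past the test, so Sox17, like Abcb1a, was lower in HAD1 and higher in HAD2. In sP with all arrays 14 of 30 further endothelial and 8 of 14 further pericyte genes were positive, with medians of -0.01 and 0.02 against 0.14 for the 10 genes; that contrast was not tested. In sP without 4 arrays, Abcg2, another efflux pump of the barrier, was lower at -0.42 (limma adjusted p = 0.00991) while Abcb1a was higher, and Kcnj8, the partner subunit of Abcc9, was higher at 0.60. In P without 4 arrays Emcn, an endothelial sialomucin, was lower at -0.70 (limma adjusted p = 0.00784).

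The ligands and co-receptors of the receptors Flt1, Kdr, Tek and Pdgfrb were measured for 14 of 15 genes. Vegfb, a ligand of Flt1, was 0.58 ± 0.09 higher in HAD2 (limma adjusted p = 1.93e-04), where 4.09% of all probe sets passed. On average over the 5 pairs it was 0.18 ± 0.05 higher (limma adjusted p = 0.0391), where 0.986% passed. No other gene of the list passed in either comparison. That average takes animals as replicates. With the 5 pair differences as the replicates, 0 of 31042 probe sets passed, Vegfb included. The receptor gene Flt1 was at 0.02 in HAD2 and -0.01 on average. In sP without 4 arrays, Vegfb was at 0.42, Vegfa at 0.30 and Pdgfra at -0.21, all past the test, against 1.75% of all probe sets. In AA without 5 arrays Angpt1, the ligand of Tek, was at 0.24 and passed, against 1.8% of all probe sets. Angpt1 had the lowest level of its list, 4.68, below the second Kdr probe set at 5.08. A level so near background limits what this call can say. The list's median was between -0.06 and 0.04 in the 5 pairs with all arrays. Of 5 drug efflux genes other than Abcb1a, 0 passed in any pair with all arrays. The share of all probe sets was 0.963% in HAD1, 4.09% in HAD2 and 0% in P, AA and sP. At such shares a count of 0 among 5 genes does not set Abcb1a apart.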

How the data were processed

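RNA of the central nucleus of the amygdala was measured on 96 rat arrays. Per the labels' protocols, 25 ng of total RNA per array was labelled with biotin in 2 cycles of amplification. The deposited values are log2 intensities, which the authors made with RMA, per the submitters' processing notes. The RMA version and the set of arrays normalized at once are not given in the sources used. The table held 0 value columns of no sample. Detection calls were not used, and precision is limited by how many arrays a line has.

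Groups and replicate numbers came from the sample titles. After 57 control probe sets were left out, 31042 were tested. Names came from the platform annotation: 20826 probe sets carried 1 symbol, 436 several and 9780 none. By Entrez identifier, 20758 matched RefSeq on GRCr8, with 0 symbols changed. The 10 genes and the 13 lists (161 genes, 145 measured) were chosen with earlier results of these data known. All probe sets of the 10 genes are given; from each list at most 2 genes per direction and comparison, those with the largest difference past the test, are named, and 8 genes most like the mean of the 10, with the 1 most like each.

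Each pair had a fit of its own in limma 3.58.1 (R 4.3.3), with an intensity trend; p-values are two-sided, with Benjamini-Hochberg adjustment over 31042 probe sets and a threshold of 0.05. A fit of all 10 groups gave the mean difference and the F test. An array's place between lines was scored without it, by the 100 probe sets that best separated the others. The fit was tested on simulated data. The labels do not state that equal numbers pair animals, so the numbers were not taken as pairs. Same-numbered arrays of P and NP, and of sP and sNP, deviated together (r over 0.1) in 5 of 10 and 3 of 8 cases, which does not decide the question. Alternatives covered the fit, normalization, filters, the GAPDH ratio and arrays left out. The titles give each array its own animal number, and p-values measure the spread between these arrays.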

Additional observations from a re-analysis of the deposited data

Results flagged for a closer look

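The difference between lines varied among the 5 pairs for Abcb1a (limma F test, adjusted p = 5.55e-05) and for Tek (adjusted p = 9.91e-05). In single lines, 9 of 160 sets of values held 1 array far from the others by Dixon's criterion, and chance alone gives about 1 in 20. The Abcb1a value of 9.20 in sP 9, against 9.86 to 10.35 in the other sP arrays, belongs to an array that lay nearer sNP. The same holds for Vwf in HAD1 28, at 10.04 against 9.65 to 9.84 in the other HAD1 arrays, and for a dimmer Pdgfrb probe set in AA 19, at 7.49 against 7.91 to 8.26 in the other AA arrays. NP 10 had both a low Rgs5 value, 9.48 against 9.76 to 10.03, and a high value of the brightest Pdgfrb probe set, 8.46 against 7.95 to 8.16. The others were Cldn5 in sNP 3 at 10.84, Pecam1 in LAD2 12 at 7.31, and dimmer Flt1 probe sets in HAD1 30 at 5.23 and in sP 4 at 5.09, each the lowest of its line.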

How the results depend on the processing

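The count of probe sets called stayed within 1.5 times in HAD2 (3 in each of the planned fits, 3 to 4 when each array in turn was left out), P (0) and AA (0) under every alternative run. These counts moved with those over all 31042 probe sets, given in brackets. In HAD1, where 1 passed (299), 2 passed with all groups in 1 fit (785), 2 with array weights (700) and 2 without the 2 arrays nearer the other line (796). The count was 0 with LAD1 36 counted as HAD1 (4) and 0 with LAD1 36 left out (180). It was 0 to 2 when each array in turn was left out (157 to 600). In sP the count was 0 in each planned fit and when each array in turn was left out. It was 2 without the 4 arrays nearer the other line (542) and 3 without these and sNP 2 (528). For the mean over pairs 1 passed without HAD1 and LAD1 (235) and 1 without the 15 arrays (901), against 0 (306). For variation among pairs 4 passed with array weights (3972), 0 without HAD1 and LAD1 (946) and 4 without the 15 arrays (3265), against 2 (1409). The median correlation among the 10 genes ran between 0.29 and 0.64 over its alternatives, with 0.64 in the arrays of sP and sNP the farthest from 0.39. The block for replicate number changed no call among the 16 probe sets of P and NP or of sP and sNP, with 0 called in both pairs. A P array correlated best with the NP array of its own number in 2 of 10 cases, and an sP array with its sNP number in 1 of 8. Of 860 values of single probe sets under an alternative other than leaving out 1 array, 790 kept their sign and side of the threshold, 56 changed sign with no call in either fit, 3 lost a call, 11 gained one and 0 reversed a call. The alternatives without the 15 arrays, and without sNP 2 as well, were chosen after the data were seen. Probe sets near background, such as the second of Kdr, limit what can be said of their genes.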
